A study of Mus musculus with 42 samples.

Results

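Genes that mark lymph node tissue were described in RNA-seq libraries labelled as mouse liver. The 9 genes were Glycam1, Ccl21a, Cd79a, Ms4a1, Cr2, Ighm, Cd3e, Ltb, and Cd74, of 54532 genes in the count table, and all of them except Ccl21a had at least 1 count. They were chosen by their levels in the 10 of 42 libraries with under 100 CPM of the hepatocyte gene Alb, and by the variation of Glycam1 among the AIN93G libraries of ZT 16. CPM is the count of a gene divided by the total of its library and multiplied by 1000000. Levels in those 10 libraries against the others are therefore given as a description, without a test.

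Female C57BL/6 mice (C57BL/6NHsd in the study's methods) were 3 weeks old when the diets began and ate them for 3 weeks. The standard diet, AIN93G, supplied 16% of energy from soybean oil, and the high-fat diet (HFD) supplied 45%. Poly(A) RNA was sequenced from 3 libraries per diet at each of 7 time points, every 4 h from ZT 0 to ZT 24, where ZT (Zeitgeber time) counts hours from lights on. The study's methods describe 3 RNA extractions per diet and time point. Neither they nor the labels state that each came from 1 mouse. No genotype or drug treatment differed between the groups. Libraries are named here by their sample titles, such as Y1_3.

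The 10 libraries with under 100 CPM of Alb did not show the expression of liver. Alb was 18.7 to 81.0 CPM in them and 66434 to 111995 CPM in the other 32, so the last library inside the threshold had 81.0 CPM and the first outside it 66434 CPM. Of other hepatocyte genes, Hp and Cyp2e1 remained, at 396 to 1566 and 475 to 1274 CPM in the 10 libraries. In the other 32, these genes were at 1392 to 3436 and 2692 to 10229 CPM. The adipocyte hormone gene Adipoq was 1455 to 2984 CPM in the 10 libraries. They were all 3 AIN93G libraries of ZT 16 (Y1_3, Y8_3, and Y11_3), all 3 of ZT 20 (Y4_1, Y5_2, and Y8_1), 2 of 3 of ZT 24 (Y3_1 and Y7_2), and 2 of 3 HFD libraries of ZT 24 (Y28_3 and Y31_2). Total counts of the 42 libraries were 14592481 to 21368409, at which 3 counts, the most that a count of 0 allows, correspond to 0.140 to 0.206 CPM. The other 32 are called liver libraries below.

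Lymph nodes are small organs in which B cells and T cells gather in separate areas and meet antigen. Lymphocytes enter from the blood through high endothelial venules, whose tall endothelial cells carry sulfated, fucosylated sugars on proteins such as GLYCAM1 to which lymphocytes bind. Stromal cells make the chemokines that sort the cells after entry, and lymphotoxin from lymphocytes maintains the venules and the stroma through NF-kB. Glycam1 is also known as a gene of the lactating mammary gland, and nodes lie within the mammary and subcutaneous fat of the mouse.

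Promoter letters of the venule gene and of the lymphotoxin gene are shown because both genes moved together in the libraries described below. The letters are from the RefSeq promoter table of GRCm38.p6, read 5′ to 3′ on the strand of the gene, and end before the gene start of the deposited table. The window of Glycam1 is chr15:103565082-103565331 on the minus strand and that of Ltb is chr17:35194257-35194438 on the plus strand, which stops short of the RefSeq start of Ltb just after 35194506. Capitals mark matches to the motifs searched, which are CCAAT in Glycam1 and the kappa B pattern in Ltb.
Glycam1: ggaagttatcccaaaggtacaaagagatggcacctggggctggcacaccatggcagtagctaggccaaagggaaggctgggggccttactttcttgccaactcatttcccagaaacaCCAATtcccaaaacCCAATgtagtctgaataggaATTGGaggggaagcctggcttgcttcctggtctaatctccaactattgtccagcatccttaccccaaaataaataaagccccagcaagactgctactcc
Ltb: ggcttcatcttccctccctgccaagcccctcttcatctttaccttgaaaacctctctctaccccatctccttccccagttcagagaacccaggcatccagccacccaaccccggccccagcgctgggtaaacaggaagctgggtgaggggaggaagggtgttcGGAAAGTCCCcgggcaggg

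The motifs were searched on both strands in the 250 bases before each start. The RefSeq table held 6 of the 9 genes. The octamer ATGCAAAT occurred in 1.60% of 32851 promoters of the same length, the EBF pattern (TCCC, any 2 bases, GGGA) in 0.779%, the kappa B pattern (GGG, any 2 bases, TT, any base, CC) in 4.11%, CCAAT in 33.8%, and TATAAA in 12.4%. Glycam1 had CCAAT at 133 and 119 bases before its start and the reverse complement ATTGG at 99 bases. Ltb had GGAAAGTCCC, a kappa B match on the minus strand, at 87 bases before its RefSeq start, which lies beyond the end of the printed letters. The windows of Ccl21a, Cd79a, Cr2, and Cd3e held none of the 5 patterns, which says only that these letters are not in these windows.

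Glycam1 (ENSMUSG00000022491, chr15:103562759-103565081, minus strand, mm10) encodes the secreted mucin of high endothelial venules. It was at 663 CPM in Y1_3 and 202 CPM in Y11_3, but at 0.0615 CPM, or 1 count, in Y8_3, the remaining AIN93G library of ZT 16. At ZT 20 it was at 108 CPM in Y8_1, 0 in Y4_1, and 0.115 CPM in Y5_2. At ZT 24 it was at 309 CPM in Y28_3 on the HFD, 0.191 CPM in Y31_2, and 0 in both Y3_1 and Y7_2. Thus 4 of the 10 libraries carried 1786 to 10653 counts of Glycam1 and the other 6 carried 0 to 3 counts. Replicates of 1 diet and time point fell on both sides of this gap at ZT 16, at ZT 20, and on the HFD at ZT 24. In the 32 liver libraries, Glycam1 had 3 counts in all, 2 in Y16_3 and 1 in Y39_1. Less RNA from each venule cell and fewer such cells cannot be told apart in bulk samples, here or for any gene that follows.

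**Figure D1:**
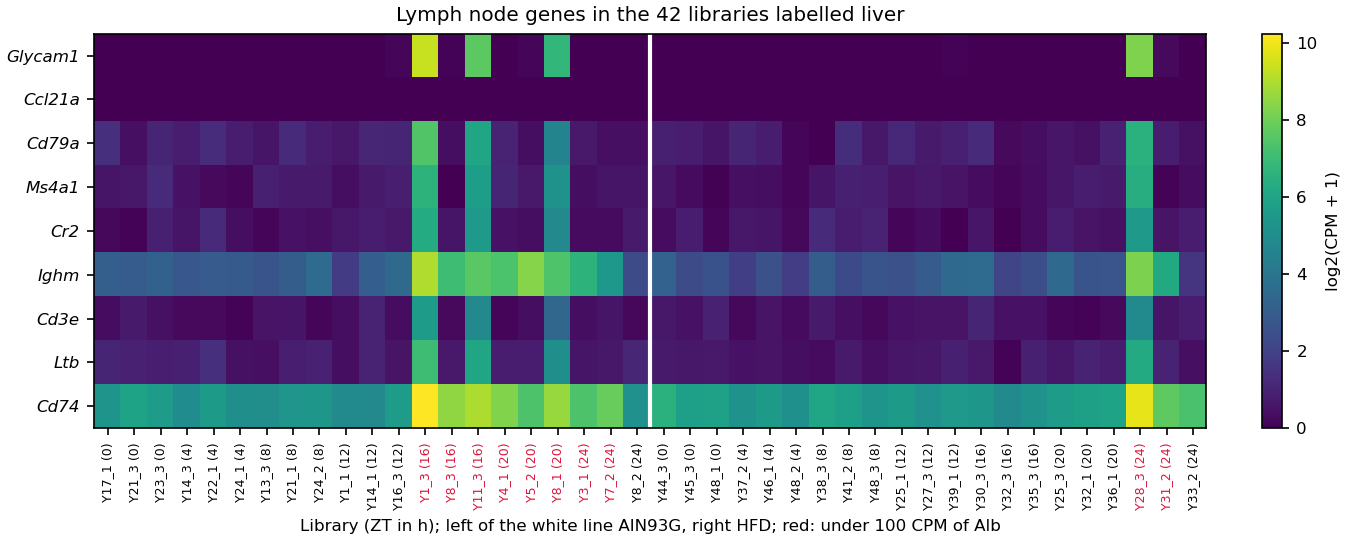
Color gives log2(CPM + 1) of the 9 lymph node genes (vertical axis) in each of the 42 libraries (horizontal axis, with ZT in hours in parentheses), with AIN93G to the left of the white line and HFD to the right. Red names are the 10 libraries with under 100 CPM of Alb, among which Y1_3, Y11_3, Y8_1, and Y28_3 carry Glycam1 and the lymphocyte genes, while Cd74 and Ighm are above the liver libraries in all 10.

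Most other genes of the venule list were also higher in the 4 libraries that carried Glycam1. Chst4, the sulfotransferase that modifies these sugars, was at 8.09, 7.25, 2.43, and 3.46 CPM in Y1_3, Y28_3, Y11_3, and Y8_1 and had no count in the other 6 libraries. Fut7, the fucosyltransferase of the same sugars, was at 12.7, 5.65, 3.61, and 2.36 CPM in those 4 and at most 0.421 CPM in the other 6. Madcam1, an addressin for lymphocytes, was low throughout, with 3.30 CPM in Y1_3 and 0.485 CPM in Y8_1 against at most 0.382 CPM in the other 6. Of the 7 genes of the venule list, 6 including Glycam1 were higher in each of the 4 libraries than in each of the other 6. Only 2 of them, Glycam1 and Fut7, also had the order Y1_3, Y28_3, Y11_3, and Y8_1. Gcnt1 was separated narrowly, at 13.7 to 24.5 CPM in the 4 and at most 12.4 CPM in the 6. The exception was B3gnt3, which extends the same sugar chains, at 9.76 CPM in Y11_3 and 10.8 CPM in Y8_1 but 16.6 CPM in Y8_3. The split into 4 and 6 libraries was drawn at 1 CPM of Glycam1 after the values were seen, so counts of genes on either side of it are descriptions. Over all 14071 genes that averaged at least 25 counts in the 10 libraries, 915 (6.50%) were higher in each of the 4 and 52 (0.370%) were lower in each of the 4.

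Ccl21a (ENSMUSG00000094686, chr4:42772860-42773993, minus strand), the T cell zone chemokine of lymph node stroma, was listed at 0 in all 42 libraries under both of its identifiers. The same chemokine is encoded by near-identical copies, and 50.3% of the 100-base windows of the Ccl21a exons also occur in Ccl21b, Gm10591, Gm13304, or Gm21541. All 9 identifiers of Ccl21a, Ccl21b, Ccl21c, and these copies had 13 counts together, all of them in 1 identifier of Ccl21c. Ccl19, the partner chemokine, shares 39.3% of its windows with other genes and had 2 counts over its 2 identifiers. How reads that match several copies were counted is not given in the sources used here, so the level of Ccl21a is uncertain in every library. Cxcl13, the chemokine of B cell follicles, was counted normally, at 55.0, 50.8, 27.8, and 27.2 CPM in Y1_3, Y28_3, Y11_3, and Y8_1 and at 0.491 to 7.16 CPM in the other 6. It was the only one of the 6 stromal genes to be higher in each of the 4 than in each of the other 6.

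Among the B cell genes, Cd79a (ENSMUSG00000003379, chr7:24897381-24902197, plus strand) encodes a signaling chain of the B cell receptor. Its level was 177 CPM in Y1_3, 92.8 CPM in Y28_3, 65.9 CPM in Y11_3, and 23.5 CPM in Y8_1. In the other 6 libraries it was 0.287 to 0.983 CPM, within the range of 0 to 1.61 CPM in the liver libraries (median 0.751 CPM). The 6 libraries thus could not be told from liver by Cd79a. A small share of its sequence, 1.77% of the windows, also occurs in Gm32220.

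Ms4a1 (ENSMUSG00000024673, chr19:11249675-11266241, minus strand), which encodes CD20, was at 96.4, 83.1, 52.3, and 36.1 CPM in Y1_3, Y28_3, Y11_3, and Y8_1. It was at 0 to 1.08 CPM in the other 6 and 0.0560 to 1.32 CPM in the liver libraries. Cr2 (ENSMUSG00000026616, chr1:195136811-195176716, minus strand), the complement receptor of B cells and follicular dendritic cells, was at 77.3, 44.4, 43.8, and 27.2 CPM in the same 4 libraries. It was at 0.227 to 0.492 CPM in the other 6 and 0 to 1.35 CPM in the liver libraries. Both genes kept the order of Cd79a among the 4 libraries, although Y28_3 and Y11_3 were almost level in Cr2.

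The B cell list reached beyond these members. Of its 20 genes, 19 were higher in each of the 4 libraries than in each of the other 6, and 17 of them also had the order of Cd79a. Fcer2a, which encodes CD23 of mature follicular B cells, was at 109, 65.3, 50.2, and 27.9 CPM in the 4 and at most 0.191 CPM in the 6. Germinal center genes did not follow: 0 of 6 separated the libraries. Of the plasma cell genes, 2 of 5 (Mzb1 and Prdm1) separated them.

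Ighm (ENSMUSG00000076617, chr12:113418558-113422730, minus strand), the constant region of the mu heavy chain, was the exception among the B cell genes. It was at 513, 296, 197, and 169 CPM in Y1_3, Y28_3, Y11_3, and Y8_1. It was also at 332 CPM in Y5_2, 161 CPM in Y4_1, 134 CPM in Y8_3, 96.5 CPM in Y3_1, 74.1 CPM in Y31_2, and 43.5 CPM in Y7_2. All 10 libraries were above the liver libraries, which had 1.95 to 11.1 CPM (median 5.71 CPM), and the second highest library was one of the 6 without Glycam1.

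The other parts of the immunoglobulin did not share this pattern in the 6 libraries. Igkc, the kappa light chain constant region, was at 224, 141, 99.2, and 50.3 CPM in Y1_3, Y28_3, Y11_3, and Y8_1, at 34.6 CPM in Y5_2, and at 1.60 to 6.50 CPM in the other 5, where the liver libraries had 2.47 to 9.35 CPM. The ratio of Igkc to Ighm was 0.298 to 0.503 in the 4 libraries and 0.0165 to 0.104 in the 6. Ighd, the delta constant region that naive B cells express with Ighm, was at 240, 179, 112, and 66.5 CPM in the 4 and 0.765 to 1.73 CPM in the 6. The 185 heavy chain variable segments summed to 17.9 to 52.6 CPM in the 4 and to 0.319 to 8.71 CPM in the 6. Y5_2 stood between the 2 sets, with 8.71 CPM of heavy chain variable segments, 23.8 CPM of kappa variable segments, and 12.6 CPM of Jchain, the joining chain of secreted IgM and IgA, which was the highest Jchain of the 10. The 5 others with Ighm at 43.5 to 161 CPM had at most 2.76 CPM of heavy chain variable segments. In the 6 libraries, reads assigned to Ighm were therefore not matched by light chains, delta, or variable segments in the proportion seen in the 4. Whether the reads were counted by strand is not given in the sources used here, and transcripts antisense to or overlapping Ighm cannot be told apart from it.

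**Figure D2:**
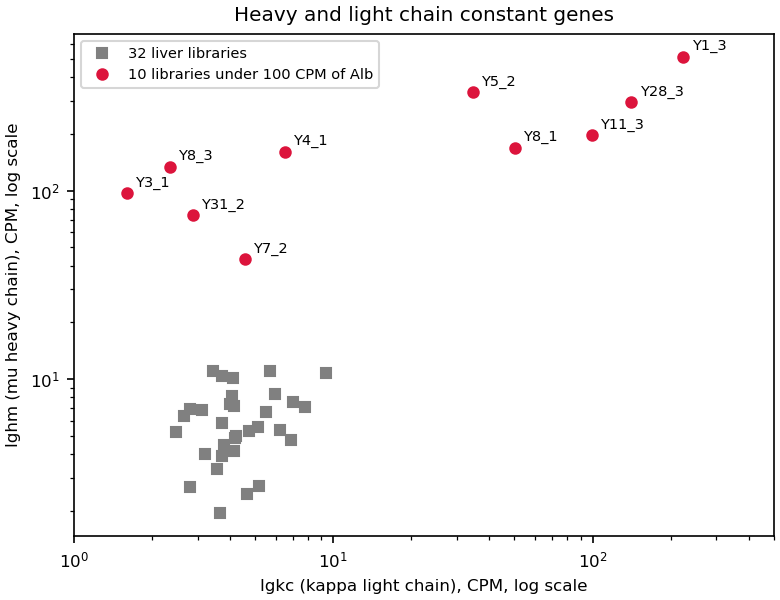
Each point is a library, with the CPM of Igkc on the horizontal and of Ighm on the vertical axis, both on log scales. Y1_3, Y28_3, Y11_3, and Y8_1 lie at 50.3 to 224 CPM of Igkc, whereas 5 of the other 6 libraries under 100 CPM of Alb (red) lie at 1.60 to 6.50 CPM of Igkc (liver, grey, 2.47 to 9.35 CPM) with 43.5 to 161 CPM of Ighm.

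Cd3e (ENSMUSG00000032093, chr9:44998740-45009627, minus strand), a chain of the T cell receptor complex, was at 50.1, 28.9, 27.6, and 9.52 CPM in Y1_3, Y28_3, Y11_3, and Y8_1. It was at 0.140 to 0.511 CPM in the other 6, and the liver libraries ranged from 0.0603 to 1.11 CPM. All 22 genes of the T cell list were higher in each of the 4 libraries than in each of the other 6, and 21 also had the order of Cd79a. Il7r, the receptor of the survival cytokine IL-7, was the exception to the order, with 80.7 CPM in Y28_3 and 52.1 CPM in Y1_3. Cd8a and Cd4, which mark cytotoxic and helper T cells, were at 95.2 and 76.0 CPM in Y1_3 and at 23.2 and 25.2 CPM in Y8_1, and their ratio was 0.918 to 1.53 in the 4 libraries. Rag1 and Rag2, the recombinase genes of developing lymphocytes, had no count in the 10 libraries, and Ptcra, the pre-T cell receptor chain of thymocytes, was at most 0.125 CPM. Dntt, the terminal transferase of developing lymphocytes, was at 2.24, 1.19, 0.769, and 0.424 CPM in Y1_3, Y28_3, Y11_3, and Y8_1 and at most 0.246 CPM in the other 6, below its liver median of 4.27 CPM in all 10. It was the only 1 of the 5 thymocyte genes to separate the libraries.

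Ltb (ENSMUSG00000024399, chr17:35194439-35196320, plus strand), whose promoter is printed above, encodes the membrane-bound chain of the lymphotoxin that maintains venules and stroma. It was at 133 CPM in Y1_3, 76.1 CPM in Y28_3, 66.7 CPM in Y11_3, and 33.3 CPM in Y8_1. In the other 6 libraries it was 0.491 to 1.02 CPM, within the range of 0.0685 to 1.66 CPM in the liver libraries. Lta, the other chain, was at 8.34, 4.34, and 5.33 CPM in Y1_3, Y28_3, and Y11_3, and like Ltb it was lowest of the 4 in Y8_1. It was at most 0.281 CPM in the 6. Of the 8 genes of the lymphotoxin and NF-kB list, 5 were higher in each of the 4. Relb and Nfkb2, the pair of subunits that the lymphotoxin receptor activates, were at 64.3 and 99.6 CPM in Y1_3 and at 28.8 and 33.8 CPM in Y8_1, against at most 14.2 and 27.2 CPM in the 6. Ltbr, the receptor itself, was at 49.1 to 66.2 CPM in the 4 and 55.3 to 66.6 CPM in the 6.

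Genes of lymphocyte homing moved with these members. Ccr7, the receptor for CCL21 and CCL19, was at 80.9, 52.5, 36.7, and 20.1 CPM in Y1_3, Y28_3, Y11_3, and Y8_1 and at most 1.19 CPM in the other 6. In all, 6 of 8 homing genes were higher in each of the 4. The exceptions were S1pr1, the egress receptor, and its regulator Klf2, both of which endothelium also expresses.

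Cd74 (ENSMUSG00000024610), the invariant chain that escorts MHC class II molecules, was high in all 10 libraries. It was at 1213, 944, 510, and 404 CPM in Y1_3, Y28_3, Y11_3, and Y8_1. It was at 370 CPM in Y8_3, 315 CPM in Y4_1, 231 CPM in Y7_2, 205 CPM in Y31_2, and 165 CPM in both Y3_1 and Y5_2. The 4 libraries were still above the other 6, but the 6 were above the liver libraries too, which ranged from 27.6 to 158 CPM (median 43.6 CPM). The liver library nearest to them was Y33_2, on the HFD at ZT 24.

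The class II genes differed in how far they followed the lymphocyte genes, without a division into distinct sets. Cd74 was above every liver library in all 10 and was also higher in the 4. Ciita and H2-DMb2 were above every liver library in 9 of 10 and were also higher in the 4. H2-Aa, a class II chain, was at 187 to 519 CPM in the 4 libraries and 61.3 to 187 CPM in the 6. H2-Ob and H2-Oa, the chains of the H2-O molecule of B cells, were at 124 and 16.1 CPM in Y1_3 and at most 1.76 and 0.284 CPM in the 6. H2-DMb2 was at 84.4, 48.6, 32.8, and 19.9 CPM in the 4 and 0.625 to 2.17 CPM in the 6. Ciita, the activator of class II transcription, was at 26.7 to 86.2 CPM in the 4 and 4.24 to 11.6 CPM in the 6. Thus 5 of 10 class II genes, Cd74 included, were higher in each of the 4 than in each of the other 6. Of the 9 macrophage genes, which mark other cells with class II, 0 separated the libraries, and their summed level was 933 to 1895 CPM in the 4 and 466 to 1707 CPM in the 6.

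Of the 9 lymph node genes, 7 were higher in each of the 4 libraries than in each of the other 6, where 6.50% of all genes were. The number was 7 also when levels were scaled by TMM factors. All 7 had the order Y1_3, Y28_3, Y11_3, and Y8_1, which 13.9% of all genes had among these 4 libraries. Among the 915 genes higher in each of the 4, 507 had this order. Nothing is read from either count, because the genes were chosen for these libraries.

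**Figure D3:**
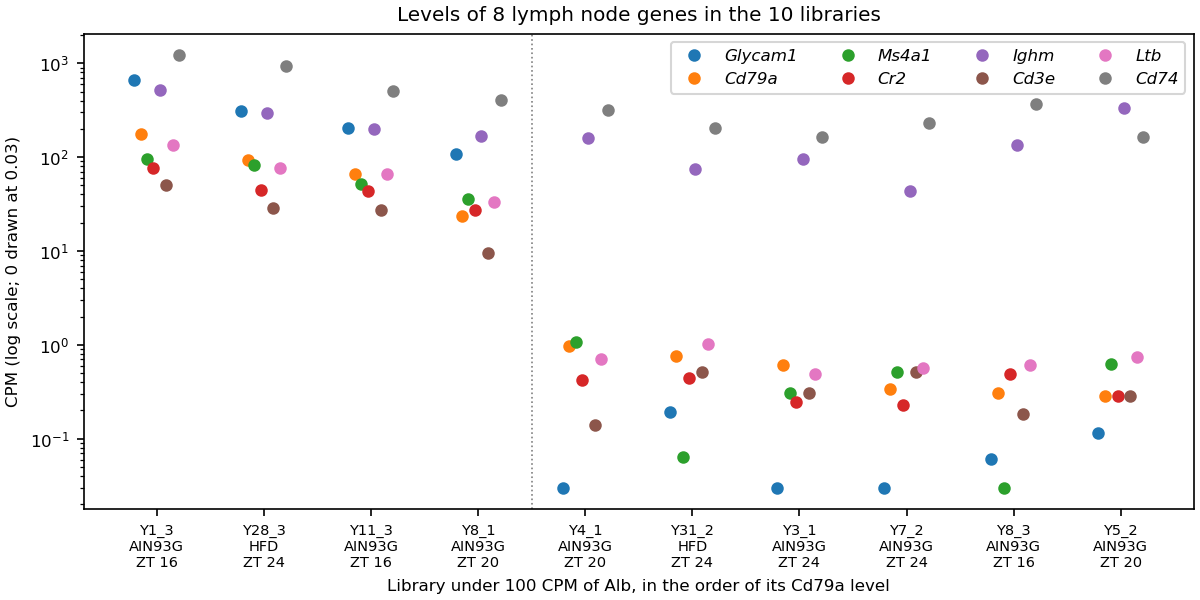
Points give the CPM (log scale, with 0 drawn at 0.03) of 8 lymph node genes in each of the 10 libraries with under 100 CPM of Alb, ordered by Cd79a. Left of the dotted line all 8 genes lie between 9.52 and 1213 CPM, and right of it all except Cd74 and Ighm lie at or under 1.08 CPM.

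The lymph node genes also differed in how far they spread among the 4 libraries. Cd79a spanned 7.51-fold from Y8_1 to Y1_3, Glycam1 6.13-fold, Cd3e 5.27-fold, and Ltb 4.01-fold. Ighm spanned 3.04-fold, Cd74 3.00-fold, Cr2 2.84-fold, and Ms4a1 2.67-fold, and the median of the 915 separated genes was 2.29-fold. Relative to Cd79a, Glycam1 varied between 3.07 and 4.60 and Cd3e between 0.284 and 0.418, whereas Ms4a1 relative to Cd79a varied 2.81-fold and was highest in Y8_1, at 1.53. Adipoq relative to Cd79a varied 10.8-fold and the milk protein gene Csn3 7.14-fold.

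Divided by exon length, the levels had a similar order in the 4 libraries. In Y1_3, the level per kilobase was 860 CPM per kb for Cd74, 311 for Glycam1, 272 for Ighm, 121 for Cd79a, 88.0 for Ltb, 15.6 for Ms4a1, 12.3 for Cd3e, and 9.52 for Cr2. In Y8_1, the level per kilobase was 287 CPM per kb for Cd74, 89.4 for Ighm, and 50.8 for Glycam1. Ighm exceeded Glycam1 per kilobase in Y28_3, Y11_3, and Y8_1 but not in Y1_3. Cd74 was the highest per kilobase in each of the 4 libraries.

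The genes most like Glycam1 over the 10 libraries were named by Pearson's r of log2(CPM + 1), as a measure of likeness without a test. They were Fcer2a (r = 0.9997), Ltb (0.9992), Cr2 (0.9988), Grem1, a BMP antagonist (0.9988), and Trat1, a T cell receptor adaptor (0.9984). Of 14070 other genes, 305 (2.17%) had an r of at least 0.95. Cd79a had an r of 0.994, Ms4a1 0.993, Cd3e 0.993, Cd74 0.879, and Ighm 0.647. The libraries form 2 clusters, 4 high and 6 near 0, and the gap between them sets most of these values, since the rank correlation of Cd79a with Glycam1 was 0.742. The genes most like Cd79a were Cd8b1, Nsg2, Tnfrsf13c, Ubash3a, and Lef1, and those most like Cd3e were Ubash3a, Cd8b1, Acap1, Cxcr6, and Gpr174. T cell genes thus stood among the nearest of the B cell gene Cd79a.

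Mammary epithelial genes, listed because Glycam1 is also known from the lactating gland, had another pattern. Csn3, Elf5, and Krt14, for a casein, a luminal transcription factor, and a basal keratin, had an r with Glycam1 of -0.258, -0.137, and 0.034. Elf5 was highest, at 62.5 CPM, in Y31_2, where Glycam1 was at 0.191 CPM, and it was at 10.1 CPM in Y1_3, where Glycam1 was highest. The summed level of the 16 mammary genes was 511 to 1709 CPM in the 4 libraries and 151 to 1920 CPM in the 6, and 0 of 16 separated them. The adipocyte genes were also at 0 of 10, with sums of 25088 to 36812 and 30250 to 44350 CPM. Of the blood endothelial genes, 0 of 6 separated them, with sums of 433 to 604 and 382 to 623 CPM. Of other lists, 3 of 6 dendritic cell genes, 2 of 5 Kupffer cell genes (Timd4 and Marco), 1 of 5 lymphatic endothelial genes, and 0 of 6 red cell genes were higher in each of the 4. Clec4f, which defines Kupffer cells, was at most 0.255 CPM in the 10 libraries and 119 to 265 CPM in the liver libraries. What part other cells had in the level of any lymph node gene was not tested.

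**Figure D4:**
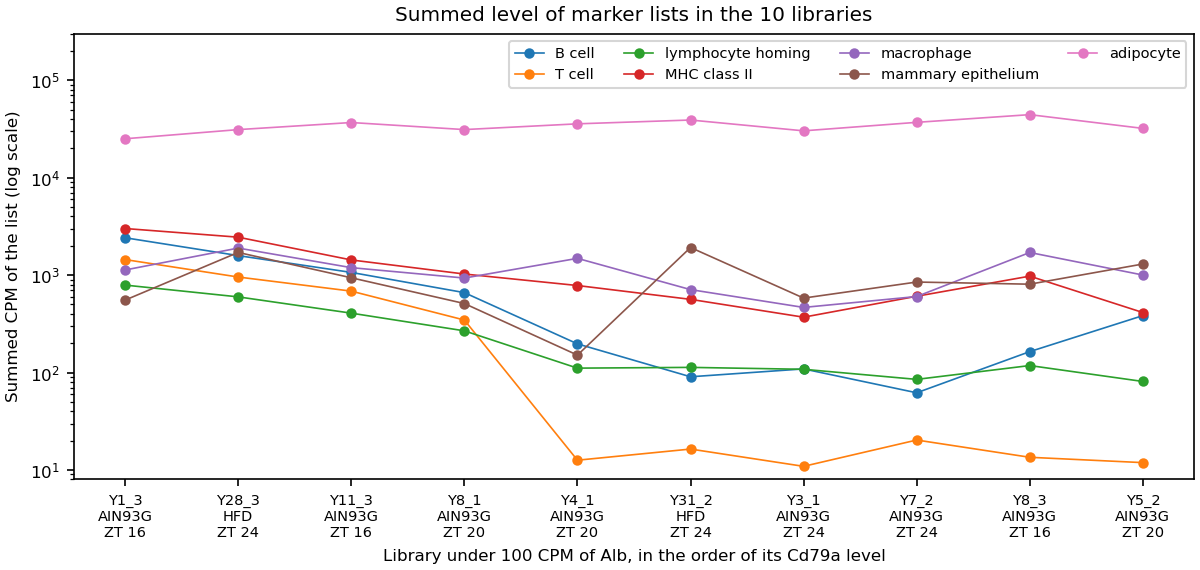
Lines join the summed CPM (log scale) of each marker list in the 10 libraries, ordered by Cd79a as on the horizontal axis. The T cell list falls from 346 CPM in Y8_1 to at most 20.3 CPM in the 6 libraries on the right, while the adipocyte list stays between 25088 and 44350 CPM and the mammary list between 151 and 1920 CPM.

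The AIN93G libraries of ZT 16 and ZT 20 lay all under 100 CPM of Alb, but the variation of Glycam1 among those of ZT 16 was itself part of how the genes were chosen. The comparison of the 2 times is therefore a description for these genes, and no test of them is read. All 8 lymph node genes with counts had a lower mean at ZT 20. The fitted log2 fold change was -2.78 for Glycam1, with -12.08 when Y8_1 was left out and -1.34 when Y1_3 was. For Cd79a it was -3.08, with -6.75 and -1.86 without the same libraries, and for Ms4a1 -1.77, with -5.65 and -0.91. Cd3e, Ltb, and Cr2, at -2.77, -2.33, and -1.92, moved to -6.74, -6.35, and -6.62 without Y8_1 and to -1.93, -1.40, and -1.11 without Y1_3. Cd74 was at -1.04 and Ighm at -0.18, which became -0.44 and 0.53 without Y1_3. The size of the fold in all 8 genes, and its sign in Ighm, thus rested on single libraries. For each of the 8 genes the 3 libraries of ZT 16 overlapped those of ZT 20, while 19.3% of all genes did not overlap. Cd74 and Ighm were above the filter on low counts in each of these 6 libraries, and the other 6 genes passed it through the libraries in which they were high. Of all 14016 genes, 0 (0%) passed an edgeR adjusted p of 0.05, 1387 had an unadjusted p under 0.05, and DESeq2 called 156.

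Diet at ZT 16 and ZT 20 coincided with the contrast that chose the genes, because the 3 AIN93G libraries of both times were under 100 CPM of Alb and the 3 HFD libraries were liver. At ZT 16, Glycam1 was 663, 202, and 0.0615 CPM on AIN93G and had no count in the 3 HFD libraries. At ZT 16, all 8 genes with counts were called lower on the HFD by edgeR, as were 28.6% of all genes tested, of which 55.7% were called in either direction. At ZT 20, 2 of 8 (Cd74 and Ighm) were called lower, where 31.2% of all genes were and 59.3% were called in either direction, and Glycam1 was 0, 0.115, and 108 CPM on AIN93G and 0 in the HFD libraries. Diet and the low Alb of the AIN93G libraries cannot be told apart at these times, and nothing is read from the calls.

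Within the liver libraries, which the choice of genes did not use against each other, only Cd74 and Ighm averaged at least 25 counts. At ZT 0, the mean of Cd74 was 48.7 ± 11.1 CPM with AIN93G and 68.4 ± 21.4 CPM with the HFD (SD, n = 3). In the same order it was 36.8 ± 8.60 and 39.6 ± 6.95 CPM at ZT 4, 37.6 ± 4.96 and 52.5 ± 12.7 CPM at ZT 8, and 35.1 ± 12.2 and 42.8 ± 6.09 CPM at ZT 12. The HFD mean was higher at all 4 times, and the groups overlapped at each of them, whereas 12.9, 7.98, 13.1, and 9.64% of all genes at ZT 0, 4, 8, and 12 did not overlap. At ZT 4 the fitted log2 fold change of 0.08 became -0.08 without Y46_1 and -0.00 without Y14_3. Over ZT 0 to ZT 12, with time point in the model and 12 libraries per diet, Cd74 was higher on the HFD by a log2 fold change of 0.34 (SE 0.12). Its unadjusted p was 0.00865 and its edgeR adjusted p 0.383, and the latter stayed above 0.05 in all 29 fits run. Of the 12009 genes tested, 18 (0.150%) were called.

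At ZT 0 in the same liver libraries, the mean of Ighm was 7.51 ± 0.615 CPM with AIN93G and 5.82 ± 2.21 CPM with the HFD (SD, n = 3). At ZT 4 the AIN93G libraries were at 5.83, 6.69, and 6.40 CPM and the HFD libraries at 2.71, 4.86, and 2.68 CPM. The groups did not overlap there, as was so for 7.98% of all genes. The log2 fold change was -0.91 (SE 0.29), with an unadjusted p of 0.0118 and an edgeR adjusted p of 1.00. At ZT 12 the means were 6.89 ± 4.21 and 7.36 ± 2.81 CPM, and their difference changed sign without Y1_1 and without Y39_1. Of the ZT 12 libraries, Y14_1 on AIN93G and Y39_1 on the HFD are labelled light phase and the other 4 dark phase. Over ZT 0 to ZT 12 the log2 fold change was -0.42 (SE 0.20), with an edgeR adjusted p of 0.641. Diet at single time points called 9 of 12030 genes (0.0748%) at ZT 0 and 0 (0%) at ZT 4, ZT 8, and ZT 12 with edgeR. Genes with an unadjusted p under 0.05 numbered 423, 846, and 520 at those 3 times, and DESeq2 called 28, 61, and 5.

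**Figure D5:**
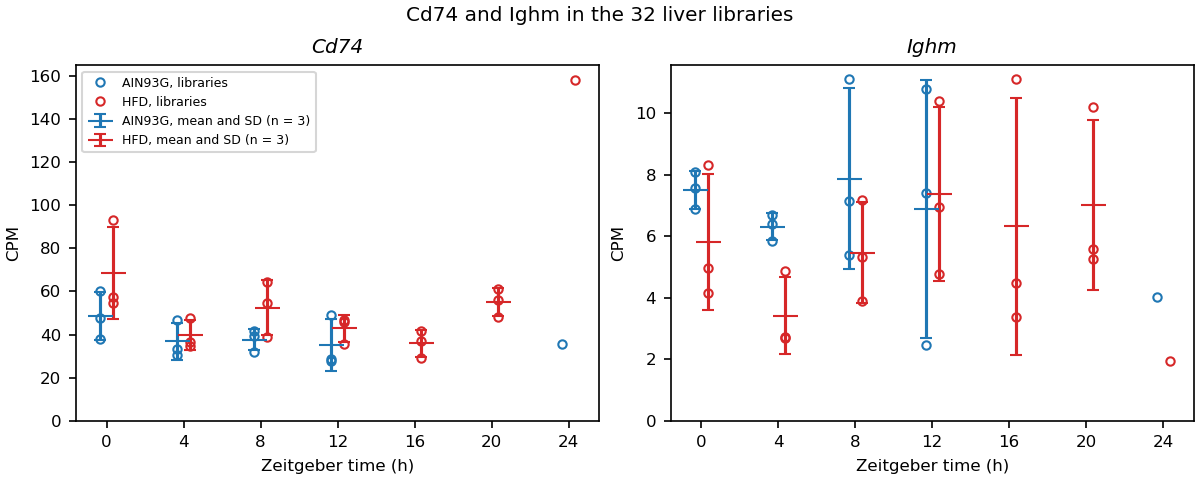
Circles give the CPM of Cd74 (left) and Ighm (right) in each liver library against Zeitgeber time in hours, and bars give the mean and SD of 3 libraries. AIN93G has no liver library at ZT 16 and ZT 20, and each diet has 1 at ZT 24. Cd74 is highest in the HFD library of ZT 24, at 158 CPM.

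From ZT 0 to ZT 20 on the HFD, Cd74 was lowest at ZT 16 (35.9 ± 6.33 CPM) and highest at ZT 0 (68.4 ± 21.4 CPM), with 55.1 ± 6.68 CPM at ZT 20 (SD, n = 3). The single HFD liver library of ZT 24, Y33_2, was higher, at 158 CPM. Some libraries of 1 diet at different times share the leading number of their titles, such as Y48_1, Y48_2, and Y48_3, which the labels do not explain and the fits do not use. The F-test over the 6 time points from ZT 0 to ZT 20 gave an edgeR adjusted p of 0.117, beside 325 of 12008 genes (2.71%) called. DESeq2 called Cd74, with an adjusted p of 0.0196, and without the filter on low counts edgeR did so at 3.27e-04. Ighm did not pass, with an adjusted p of 0.415, but was at 0.0255 without that filter. On AIN93G from ZT 0 to ZT 12, the adjusted p was 0.774 for Cd74 and 0.955 for Ighm. No gene was called there by edgeR (0 of 12008, 0%), 1196 had an unadjusted p under 0.05, and DESeq2 called 278.

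The remaining lymph node genes were near the limit of detection in liver. Over the 18 HFD liver libraries of ZT 0 to ZT 20, the median was 0.698 CPM for Cd79a, 0.458 for Ms4a1, 0.410 for Cr2, 0.407 for Cd3e, and 0.594 for Ltb, and Glycam1 had a median of 0. Over the 12 AIN93G liver libraries of ZT 0 to ZT 12, the median was 0.926 CPM for Cd79a, 0.624 for Ms4a1, 0.458 for Cr2, 0.281 for Cd3e, and 0.854 for Ltb. The highest count of these 5 genes in any liver library was 20 to 29, and their mean counts were under the filter of the tests reported here. In fits without that filter, none of them had an adjusted p under 0.05 in any liver comparison. For diet over ZT 0 to ZT 12, edgeR with the filter called 0 of 4 B cell, 0 of 2 T cell, 0 of 7 class II, and 0 of 5 lymphotoxin and NF-kB genes tested, with the background of 0.150% given above. All 7 class II genes tested were fitted higher in HFD than in AIN93G libraries, by a median of 0.25 on the log2 scale, where 5938 of all 12009 genes were fitted higher (median -0.00). Of these 7, 2 had an unadjusted p under 0.05, as had 945 of all 12009 genes. At ZT 4 alone, 2 class II genes were fitted higher and 4 lower (median -0.18). Of the macrophage genes, 8 of 8 tested were fitted higher with the HFD over ZT 0 to ZT 12 (median 0.18) and 0 were called, and at ZT 4 they split 4 to 4. Of the Kupffer cell genes, 5 of 5 were fitted higher (median 0.28), 2 had an unadjusted p under 0.05, and 0 were called. The part of these cells in the class II levels was not tested.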

How the data were processed

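Per the labels, 42 libraries of female C57BL/6 liver (C57BL/6NHsd in the study's methods) were grouped by diet and time point, with 3 in each of 14 groups. Whole-number read counts were deposited by the authors in a single table, without normalization. Libraries were prepared with poly-T beads and a NEBNext kit. The submitters' processing notes name fastp, STAR, HTSeq 0.6.1, DESeq, STAR-Fusion, and mm10. Strand setting and the treatment of reads with several matches are not given in the sources used here.

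Levels are CPM, the count over the library total. The 10 libraries had TMM factors of 1.21 to 1.69 and the 32 liver libraries 0.800 to 0.963, so TMM scaling lowers levels in the former relative to the latter. Tests used the quasi-likelihood F-test of edgeR 4.0.16 in R 4.3.3 with TMM, on genes averaging at least 25 counts in the libraries of a fit, with Benjamini-Hochberg adjustment at 0.05. All adjusted p-values are from edgeR unless DESeq2 (1.42.0) is named, and p-values measure the spread between libraries. Alternatives were DESeq2, library size scaling, other filters, a single fit of all libraries, and leaving out each library. In simulated data of the comparison of ZT 20 with ZT 16 (14016 genes), the test recovered 178 of 200 genes changed 4-fold, with 10 false calls. Only genes with higher mean counts were changed, and counts were drawn with the spread typical of genes at their level. Replicates on both sides of the Glycam1 gap were not simulated, so this recovery does not hold for genes that vary as Glycam1 does. All 42 replicate pairs differed by more than sampling noise (chi-square over its degrees of freedom, 16.0 or more), and limits from counts cover counting error only.

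The lymph node genes, marker lists, and comparisons were chosen with earlier results of these data known. Named genes are the 9 lymph node genes, members of the marker lists, Alb and Adipoq, and the 5 genes most like each of Glycam1, Cd79a, and Cd3e. Ighm, Igkc, and the immunoglobulin segments were set side by side after their values were seen, and TMM scaling of the count of separated genes was added then. Windows shared with other genes were counted over the GENCODE M21 transcripts. Positions are those of the deposited table and promoters are from RefSeq, GRCm38.p6.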

Additional observations from a re-analysis of the deposited data

Results flagged for a closer look

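Cr2 was higher on the HFD in every library at ZT 8 and lower in every library at ZT 12. At ZT 8 it was 1.31, 0.710, and 0.970 CPM on the HFD and 0.113, 0.420, and 0.327 CPM on AIN93G, a difference in means (HFD minus AIN93G) of 0.709 CPM. At ZT 12 it was 0.115, 0.281, and 0 CPM on the HFD and 0.570, 0.739, and 0.645 CPM on AIN93G, a difference of -0.519 CPM. Such separation of the 2 diets was seen in 13.1% of the genes tested at ZT 8 and 9.64% at ZT 12. The difference between the time points was not tested, because Cr2 had at most 22 counts in a liver library and was under the filter on low counts. Without that filter, the adjusted p of Cr2 was above 0.05 at both times.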

How the results depend on the processing

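In the comparisons run with alternatives, Cd74 and Ighm over time on the HFD changed their call with a setting, and counts over all genes moved widely. Diet at ZT 16 and ZT 20 was fitted once, with no alternative. With DESeq2, 156 genes were called for AIN93G at ZT 20 against ZT 16, 106, 28, 61, and 5 for diet at ZT 0, 4, 8, and 12, 80 for diet over ZT 0 to ZT 12, 1547 for time point on the HFD, and 278 for time point on AIN93G. Without the filter on low counts, edgeR called 2, 453, 182, and 252 genes for the first 4 of these, 86 for diet over ZT 0 to ZT 12, 2333 for time point on the HFD, and 705 on AIN93G. For diet at ZT 0, a filter over all libraries gave 14 genes and a single fit of all libraries 0, against 9. Leaving out 1 library gave 0 to 0 genes for ZT 20 against ZT 16, 1 to 32, 0 to 3, 0 to 2, and 0 to 0 for diet at those 4 time points, 2 to 124 over ZT 0 to ZT 12, 170 to 1079 for time point on the HFD, and 0 to 302 on AIN93G. The highest counts came without HFD ZT 0 replicate 1 (32), AIN93G ZT 12 replicate 1 (124 and 302), and HFD ZT 12 replicate 3 (1079). The likeness of Cd79a to Glycam1 was 0.994, 0.992 to 0.997 without 1 library, and 0.742 as Spearman's rho.

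With 1 library left out, the log2 fold change of Ighm had a range of -0.56 to 0.53 for ZT 20 against ZT 16 (0.53 without Y1_3) and of -0.26 (without Y1_1) to 0.60 for diet at ZT 12, with -0.15 without Y39_1. That of Cd74 at ZT 4 had a range of -0.08 (without Y46_1) to 0.26, with -0.00 without Y14_3. None of these was called in either fit. Over time on the HFD, Cd74 was called by DESeq2 (0.0196) and without the filter (3.27e-04), as was Ighm without it (0.0255). The cause of these changes was not tested. Genes higher in the 4 libraries than in the other 6 numbered 782 with TMM scaling, against 915. No paired analysis was possible because the diets share no leading number of the titles, any 2 time points of a diet share at most 1, and the labels do not say what it means. A block on the recurring numbers in the tests over several time points was not run. Depth limits Glycam1 in liver, where 3 counts were found in 32 libraries.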
